A study of Mus musculus with 3 samples.

Results

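The netrin receptors and their immunoglobulin superfamily relatives were followed as 8 genes, chosen by symbol, of the 32285 genes in the count matrices. They are Dcc, Neo1, the 4 Unc5 genes Unc5a, Unc5b, Unc5c and Unc5d, and the pair Dscam and Dscaml1. The mice were uninjured C57BL/6 animals whose brain neurons carried a retrograde label taken up in the lumbar cord. Labelled tissue was cut from sagittal slices under fluorescence, and its nuclei were sorted and sequenced in droplets, with unique molecular identifiers (UMIs, tags that mark single captured RNA molecules) counted for each gene and nucleus. There was 1 group of 3 libraries, labelled as biological replicates 1, 2 and 3. The sources used here do not give sex, age, tracer or the number of animals per library. The p-values therefore measure only how much the differences between types vary over these libraries, a spread that may in part be technical.

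Netrin-1 is a secreted, laminin-related guidance cue. DCC is its attractive receptor, UNC5 proteins turn the response to repulsion, alone or together with DCC, and DSCAM is a homophilic adhesion molecule that has also been described as a netrin receptor. In mice, corticospinal axons take wrong paths when Dcc or Unc5c is mutated, and human mutations in DCC cause congenital mirror movements. The comparison asked how transcripts of these receptors are distributed among brain neurons that send axons to the cord.

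The nuclei were typed by genes outside the family, at levels in CPM (UMIs of a gene over all UMIs of the nucleus or sum, scaled to counts per 1000000) and with at least 2 UMIs for each gate, in a fixed order. Cortical nuclei had Tox at 300 CPM or more, red nucleus nuclei the sum of Ttc6, Chst9 and Rreb1 at 150 or more, hypothalamic nuclei Sim1 or the sum of Ros1 and Rfx2 at 150 or more, and hindbrain nuclei the sum of Meis1 and Meis2 at 200 or more. Barcodes were kept from 1000 genes upwards if mitochondrial genes made up no more than 5% of their UMIs. Of 9027 such nuclei, 4126 were cortical, 332 red nucleus, 149 hypothalamic and 2782 hindbrain, and 1638 passed no gate. The libraries held 27435221, 74287112 and 60490064 UMIs in replicates 1, 2 and 3, and the median nucleus had 8270, 19493 and 14388 UMIs. They shared between 2 and 10 cell barcodes a pair. Defining markers that were not used as gates were highest in their own type for 6 of 6 cortical, 4 of 4 red nucleus, 6 of 6 hypothalamic and 7 of 8 hindbrain genes, the exception being Hoxb5. Some leads were narrow, in CPM without the scaling described next. Slc17a6, counted for the red nucleus, had 102 to 119 CPM there, 96.0 to 112 in hypothalamic and 91.1 to 115 in hindbrain nuclei. Hoxb4 averaged 1.43 CPM in hindbrain and 1.28 in hypothalamic nuclei, the latter on 2 UMIs. The gates were not exclusive, because 1719 of the cortical nuclei (41.7%) also passed a later gate. Whether these were mixed nuclei was not tested. The summed level of 6 cortical markers was 1399 to 1458 CPM in cortical nuclei and 138 to 267 CPM in hindbrain nuclei, without the scaling described next.

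UMIs were summed per library and type, and the 12 sums were compared with edgeR's quasi-likelihood test with the library as a block. Levels from these sums are given as CPM on the TMM scale, which corrects totals for differences in composition, and levels said to be plain CPM lack that correction. A call needed a log2 fold change of 1 or more in size, which is 2-fold, together with a p under 0.05 after Benjamini-Hochberg adjustment over the 16185 genes tested. All 8 members passed the filter on low counts. The zero of the comparisons depended on the scaling: scaling by total UMIs alone moved the median log2 fold change of all genes by -0.42 for cortical against hindbrain nuclei, by -0.35 against red nucleus nuclei and by -0.54 against hypothalamic nuclei. It moved the median by -0.19 for red nucleus against hypothalamic nuclei and by 0.12 for hypothalamic against hindbrain nuclei.

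Cortical nuclei stood apart from the other types in the same 3 members, Dcc and Unc5d being lower and Dscaml1 higher in every comparison. Against hindbrain nuclei, 6 of the 8 members were called, where 21.4% of all genes were. Unc5a, Unc5b, Unc5c and Dscaml1 were higher in cortical nuclei and Dcc and Unc5d lower. Against red nucleus nuclei, 4 members were called, where 21.8% of all genes were: Unc5b and Dscaml1 were higher in cortical nuclei, Dcc and Unc5d lower. Against hypothalamic nuclei it was also 4, where 22.0% of all genes were called, with Unc5c and Dscaml1 higher and Dcc and Unc5d lower. The median size of the members' log2 fold change was 1.46 in cortical against hindbrain nuclei, where it was 0.45 over all genes, 1.21 beside 0.50 against red nucleus nuclei and 0.98 beside 0.62 against hypothalamic nuclei. The members were chosen with earlier results of these data known, and the low cortical Dcc and Unc5d had been seen before. Setting their counts and medians beside those of all genes, here and in the comparisons below, is therefore a description and no test. The plot of log2 fold changes shows all 6 comparisons.

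**Figure D1:**
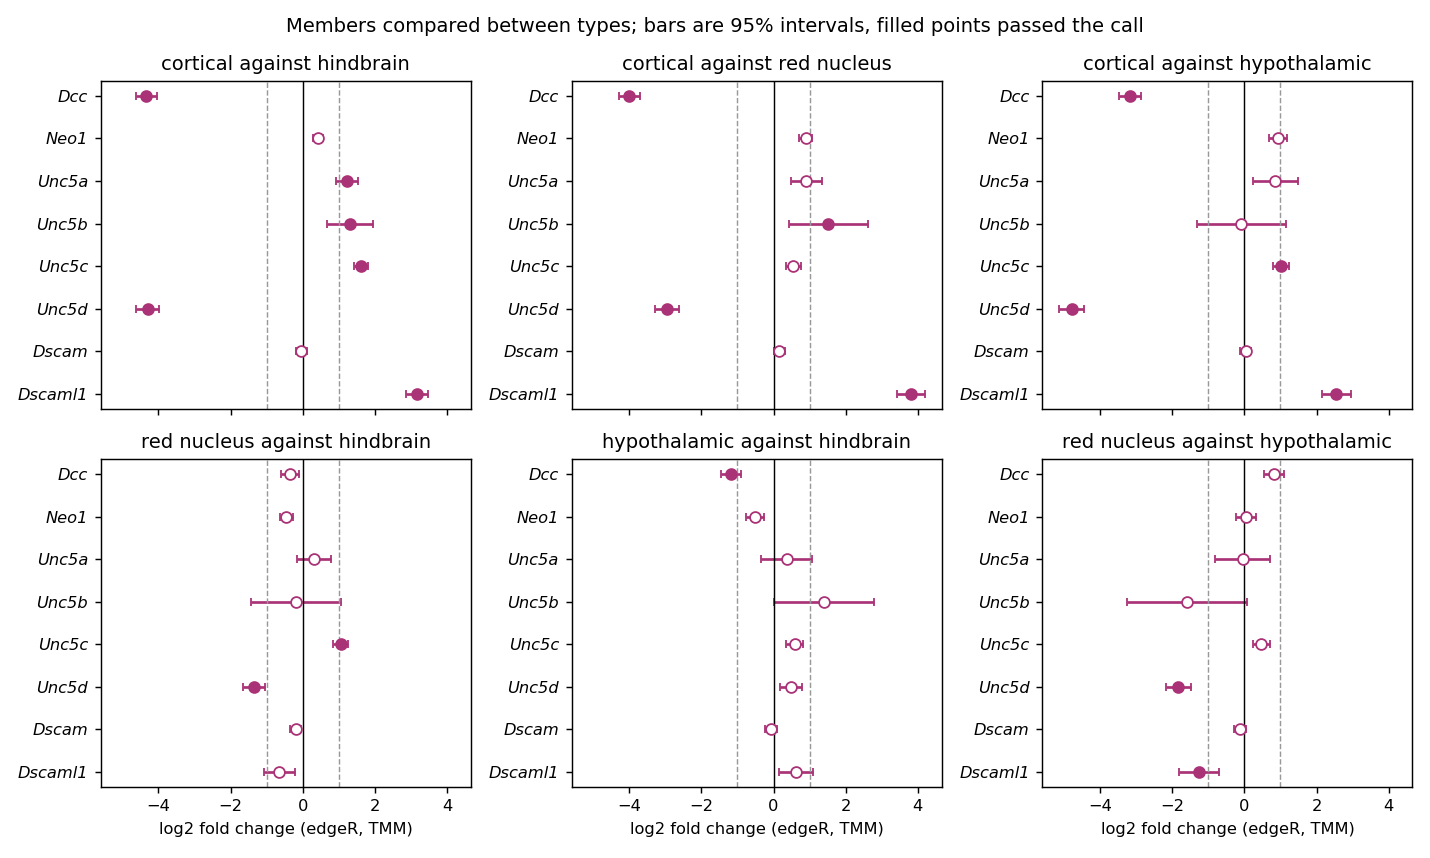
Log2 fold change of each member in the 6 comparisons of types, from edgeR on 12 sums (3 libraries of 4 types), the first-named type over the second. Horizontal bars are 95% intervals, dashed lines mark 2-fold, and filled points passed the call. Dcc lies at -4.34, -3.99 and -3.17 and Dscaml1 at 3.17, 3.81 and 2.55 in the upper row.

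The other comparisons called fewer members and fewer genes. Red nucleus against hindbrain nuclei gave 2 called members, where 4.18% of all genes were called, with Unc5c higher and Unc5d lower in red nucleus nuclei. Hypothalamic against hindbrain nuclei gave only Dcc, lower in hypothalamic nuclei, where 4.16% of all genes were called. Red nucleus against hypothalamic nuclei gave Unc5d and Dscaml1, both lower in red nucleus nuclei, where 6.81% of all genes were called. The median size of the members' log2 fold change was 0.40, 0.55 and 0.64 in these comparisons, beside 0.24, 0.32 and 0.40 over all genes.

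**Figure D2:**
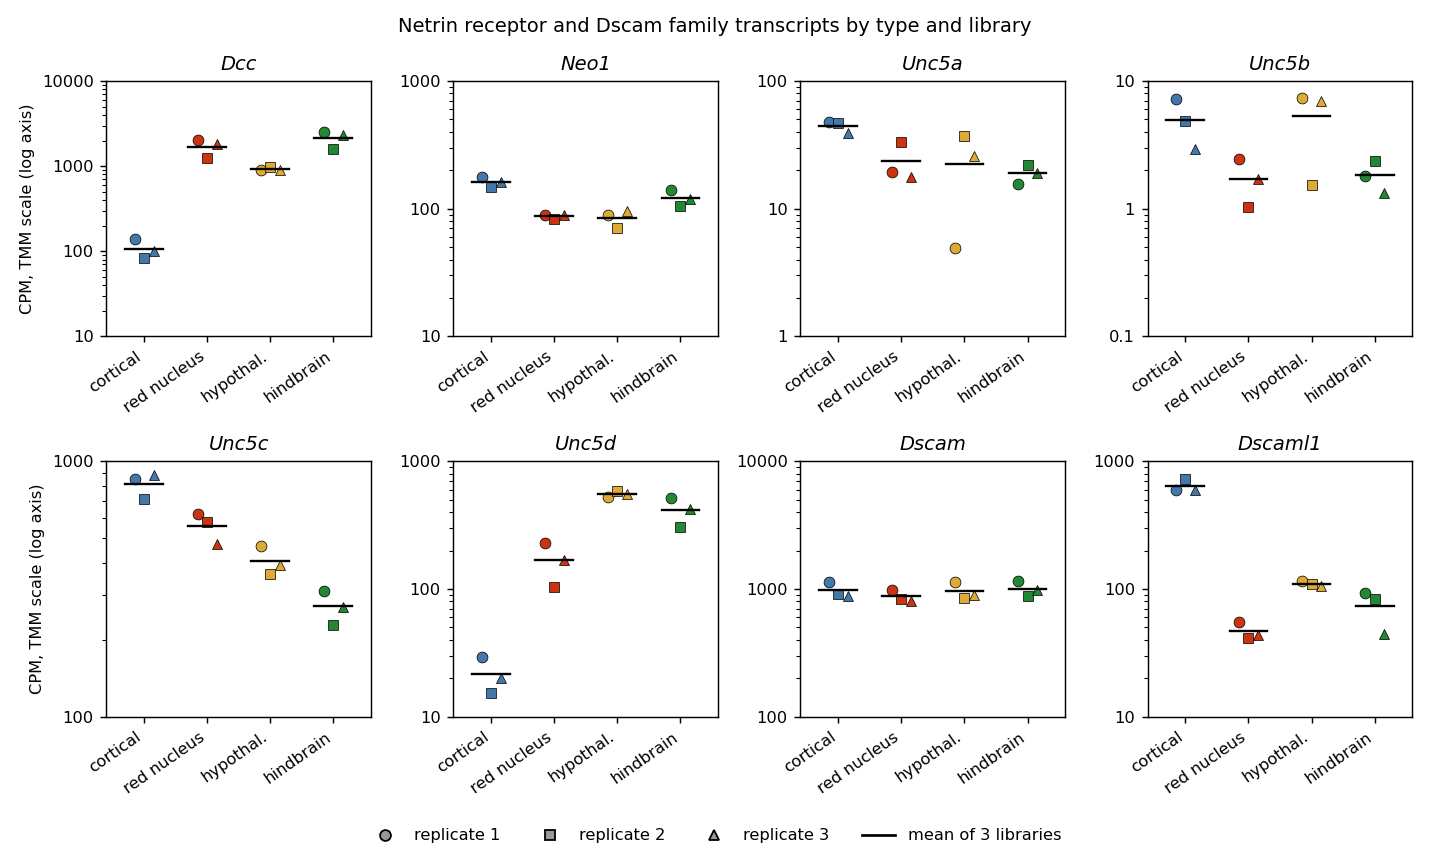
Level of each member in CPM on the TMM scale (log axis, its range differing between panels) in cortical, red nucleus, hypothalamic and hindbrain nuclei. Points are the 3 libraries and lines their means. Dcc and Unc5d are lowest and Dscaml1 is highest in the 3 cortical sums, and Dscam spans 803 to 1153 CPM over all 12.

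Dcc encodes the receptor through which netrin-1 attracts axons. It lies on mouse chromosome 18 and spans 1097 kb, of which 98.8% is intronic (build mm10, GENCODE annotation). The other members are 90.9% to 98.5% intronic. It had 138, 84.0 and 99.4 CPM in cortical nuclei of replicates 1, 2 and 3. In red nucleus nuclei it had 2029, 1244 and 1820 CPM, in hypothalamic nuclei 899, 983 and 894 CPM, and in hindbrain nuclei 2545, 1606 and 2323 CPM. Every cortical library lay below every library of the other types, and the hypothalamic libraries lay below all red nucleus and hindbrain libraries. Dcc was 20.2-fold lower in cortical than in hindbrain nuclei (log2 fold change -4.34 ± 0.14 SE, adjusted p = 5.86e-14). It was 15.9-fold lower in cortical than in red nucleus nuclei (-3.99 ± 0.14, adjusted p = 1.71e-13). Against hypothalamic nuclei it was 8.99-fold lower in cortical nuclei (-3.17 ± 0.14, adjusted p = 6.61e-12). The order among the other types was clear at its lower end: hypothalamic nuclei had 2.25-fold less Dcc than hindbrain nuclei (-1.17 ± 0.13, adjusted p = 7.11e-06). Red nucleus and hindbrain nuclei, the neighbours at the top, overlapped between libraries and were not called, although Dcc was lower in red nucleus nuclei within 3 of 3 libraries (-0.35, 95% interval -0.60 to -0.09, adjusted p = 0.0756). Red nucleus nuclei lay above hypothalamic nuclei in 3 of 3 libraries by less than 2-fold (0.82 ± 0.13, adjusted p = 2.70e-04), and without replicate 2 the difference was called, at 1.10.

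The little Dcc found in cortical nuclei was concentrated in few of them. The median cortical nucleus had no Dcc UMI, and the 10% of cortical nuclei with most Dcc held 88.5% of its UMIs, against 33.3% in hindbrain nuclei. At 1000 plain CPM or more there were 137 cortical nuclei (3.32%, between 3.11% and 4.03% a library), which held 61.4% of the cortical Dcc UMIs. This limit was set after the values had been seen, so the Dcc level of these nuclei is a matter of choice and no test was made. Their median depth was 9015 UMIs, against 19717 in the remaining cortical nuclei, and the gate gene Tox had 583 plain CPM, against 778. Their cortical marker sum was 573 plain CPM, against 1460 in the remaining cortical nuclei. Slc17a6, the vesicular glutamate transporter typical of subcortical neurons, had 79.5 plain CPM in them, against 5.68 in the remaining ones, and the sum of 8 hindbrain markers was 60.1, against 3.41. Cortical nuclei that also passed a later gate had 124 ± 40.4 plain CPM of Dcc, and those that passed the Tox gate alone had 55.1 ± 4.93 (SD, n = 3 libraries). When nuclei passing gates of more than 1 type were left out, the log2 fold change of Dcc in cortical against hindbrain nuclei was -4.93.

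Neo1 encodes neogenin, the DCC paralogue that binds repulsive guidance molecules as well as netrins. It lies at chr9:58874687-59036441 on the minus strand (mm10). It averaged 162 ± 13.5 CPM in cortical, 87.3 ± 4.19 in red nucleus, 84.9 ± 12.7 in hypothalamic and 121 ± 16.7 CPM in hindbrain nuclei (SD, n = 3 libraries). Neo1 was not called in any of the 6 comparisons, all of its differences being under 2-fold. With all gates at 2 times their level it was called as higher in cortical than in red nucleus nuclei (1.06) and than in hypothalamic nuclei (1.10), and the second call was also made without a count filter (1.04) and without replicate 3 (1.04). With the settings reported here the widest differences were cortical against hypothalamic nuclei, at 0.94 (95% interval 0.70 to 1.18), and cortical against red nucleus nuclei, at 0.89 (0.71 to 1.07). Against hindbrain nuclei the cortical value was 0.43 on the TMM scale and 0.02 with total UMIs alone, so no direction is given there. An antisense gene overlapping Neo1, Gm47271, had 33.6 ± 13.7 plain CPM in cortical, 51.6 ± 18.5 in red nucleus, 63.4 ± 3.01 in hypothalamic and 60.5 ± 17.4 in hindbrain nuclei. The sources used here do not say whether counting used strand, so reads of Neo1 and of this gene may not be told apart. Unc5a, Unc5c, Dscam and Dscaml1 overlap antisense genes as well, and the same limit holds for them.

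Unc5c and Unc5d, both UNC5 receptors, ran in nearly opposite order across the types. Unc5c (chr3:141465216-141834924, plus strand, mm10) is needed in mice for the normal course of spinal and cortical axons. It had 854, 713 and 887 CPM in cortical nuclei of replicates 1, 2 and 3. Red nucleus nuclei had 620, 576 and 475 CPM, hypothalamic nuclei 467, 361 and 393 CPM, and hindbrain nuclei 312, 229 and 269 CPM. On the TMM scale Unc5c was in the order cortical, red nucleus, hypothalamic, hindbrain within each library, and the libraries of the 4 types did not overlap. In plain CPM the order turned in replicate 2, with 580 CPM in cortical and 596 CPM in red nucleus nuclei, and the cortical, red nucleus and hypothalamic ranges overlapped with their neighbours. It was 3.04-fold higher in cortical than in hindbrain nuclei (log2 fold change 1.61 ± 0.09 SE, adjusted p = 1.02e-10). Cortical nuclei had 2.02-fold more than hypothalamic nuclei (1.02 ± 0.11, adjusted p = 6.86e-07), at the edge of the call. That call was lost under 5 of 12 alternatives, with values from 0.48 with total UMIs alone to 0.97 with DESeq2. Red nucleus nuclei had 2.08-fold more Unc5c than hindbrain nuclei (1.05 ± 0.10, adjusted p = 7.95e-07), a call lost without replicate 2 (0.89) and with total UMIs alone (0.99). Neighbours in the order differed by less than 2-fold, at 0.55 for cortical against red nucleus nuclei, 0.46 for red nucleus against hypothalamic nuclei and 0.59 for hypothalamic against hindbrain nuclei.

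Unc5d (chr8:28646717-29219636, minus strand, mm10) encodes a receptor that also binds FLRT adhesion proteins. It had 29.2, 15.4 and 20.1 CPM in cortical nuclei of replicates 1, 2 and 3. Red nucleus nuclei had 229, 105 and 168 CPM, hypothalamic nuclei 529, 585 and 552 CPM, and hindbrain nuclei 520, 308 and 420 CPM. The libraries of the 4 types did not overlap, with cortical nuclei lowest, then red nucleus, hindbrain and hypothalamic nuclei. Cortical nuclei had 27.5-fold less Unc5d than hypothalamic nuclei (log2 fold change -4.78 ± 0.16 SE, adjusted p = 2.82e-13). They had 19.7-fold less than hindbrain nuclei (-4.30 ± 0.15, adjusted p = 1.29e-13) and 7.76-fold less than red nucleus nuclei (-2.96 ± 0.16, adjusted p = 6.76e-11). Red nucleus nuclei in turn had 3.55-fold less Unc5d than hypothalamic nuclei (-1.83 ± 0.16, adjusted p = 3.44e-07). Against hindbrain nuclei they had 2.54-fold less (-1.34 ± 0.14, adjusted p = 4.64e-06). With all gates at 2 times their level these values were -2.60 and -2.22. Hypothalamic and hindbrain nuclei, the neighbours at the top, differed by less than 2-fold (0.48, 95% interval 0.18 to 0.78).

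In hindbrain nuclei Unc5d was split between nuclei more than Dcc was. The median hindbrain nucleus had no Unc5d UMI, the upper quartile was at 600 plain CPM and the 90th percentile at 1617 plain CPM. Dcc had a median of 2057 and a lower quartile of 1093 plain CPM in the same nuclei. In red nucleus nuclei 64.8% had no Unc5d UMI, and the 10% with most held 71.4% of its UMIs. Hypothalamic nuclei were more even, with a median of 373 plain CPM and 44.4% of the Unc5d UMIs in the 10% with most.

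Unc5a and Unc5b had few UMIs. Unc5a (chr13:54949411-55006018, plus strand) averaged 44.6 ± 4.43 CPM in cortical, 23.4 ± 8.59 in red nucleus, 22.6 ± 16.2 in hypothalamic and 18.9 ± 3.21 CPM in hindbrain nuclei (SD, n = 3 libraries), the hypothalamic value resting on 41 UMIs. It was 2.33-fold higher in cortical than in hindbrain nuclei (log2 fold change 1.22 ± 0.14 SE, adjusted p = 1.25e-06), in 3 of 3 libraries, and 0.81 with total UMIs alone, under the 2-fold limit. The hypothalamic libraries differed most, at 4.94, 36.9 and 25.9 CPM, and without replicate 2 Unc5a was called in cortical against red nucleus nuclei, at 1.25, and against hypothalamic nuclei, at 1.36. The second call was also made with all gates at 2 times their level, at 1.16. Unc5b (chr10:60762593-60831581, minus strand), which is best known from blood vessels, averaged 4.99 ± 2.16 CPM in cortical, 1.72 ± 0.703 in red nucleus, 5.29 ± 3.26 in hypothalamic and 1.83 ± 0.529 CPM in hindbrain nuclei. Red nucleus and hypothalamic nuclei held 8 Unc5b UMIs each. Its calls were 2.50-fold higher in cortical than in hindbrain nuclei (1.32 ± 0.30, adjusted p = 0.00116) and 2.86-fold higher in cortical than in red nucleus nuclei (1.52 ± 0.52, adjusted p = 0.0231). The first was lost with total UMIs alone (0.91), and the second there (1.18), without replicate 1 (1.56) and without replicate 2 (1.20). The first was at 2.04 when only hindbrain nuclei named by transmitter genes were kept, and the second at 2.59 with all gates at 2 times their level and at 2.13 without nuclei passing gates of more than 1 type, all of them called. The summed level of 3 endothelial markers was 4.33 to 7.14 plain CPM in cortical, 3.71 to 17.9 in red nucleus, 7.21 to 32.7 in hypothalamic and 8.25 to 13.2 in hindbrain nuclei, with Cldn5 at 0 in red nucleus and hypothalamic nuclei. Their part in the Unc5b values was not tested.

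Dscam and Dscaml1, paralogous adhesion molecules of the nervous system that mediate homophilic recognition, behaved differently. Dscam (chr16:96590840-97170752, minus strand, mm10) had 1142, 913 and 880 CPM in cortical nuclei of replicates 1, 2 and 3. In red nucleus nuclei it had 989, 828 and 803 CPM, in hypothalamic nuclei 1127, 849 and 892 CPM, and in hindbrain nuclei 1153, 874 and 980 CPM. On the TMM scale all 4 types overlapped, and in each of them replicate 1 was the highest library. The 95% interval of the log2 fold change was -0.18 to 0.11 for cortical against hindbrain, 0.01 to 0.31 for cortical against red nucleus and -0.12 to 0.19 for cortical against hypothalamic nuclei. It was -0.35 to -0.05 for red nucleus against hindbrain, -0.23 to 0.09 for hypothalamic against hindbrain and -0.29 to 0.04 for red nucleus against hypothalamic nuclei. With total UMIs alone the cortical value was -0.45 against hindbrain, -0.18 against red nucleus and -0.50 against hypothalamic nuclei. In plain CPM Dscam had 895, 743 and 700 CPM in cortical nuclei of replicates 1, 2 and 3, against 1154, 975 and 1042 CPM in hindbrain nuclei, which did not overlap.

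Dscaml1 (chr9:45426628-45753712, plus strand, mm10) was the member with the highest ratio in favour of cortical nuclei. It had 596, 731 and 591 CPM in cortical nuclei of replicates 1, 2 and 3. In red nucleus nuclei it had 55.1, 41.0 and 43.7 CPM, in hypothalamic nuclei 116, 109 and 105 CPM, and in hindbrain nuclei 93.4, 83.7 and 44.6 CPM. All cortical libraries lay above all others, the hypothalamic libraries lay above the remaining types, and red nucleus and hindbrain libraries overlapped. Dscaml1 was 14.02-fold higher in cortical than in red nucleus nuclei (log2 fold change 3.81 ± 0.18 SE, adjusted p = 1.09e-11). It was 8.98-fold higher than in hindbrain nuclei (3.17 ± 0.14, adjusted p = 3.75e-12) and 5.85-fold higher than in hypothalamic nuclei (2.55 ± 0.19, adjusted p = 8.02e-09). Red nucleus nuclei had 2.40-fold less than hypothalamic nuclei (-1.26 ± 0.26, adjusted p = 0.00333), which fell short of the call with all gates at 2 times their level (-0.75).

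The Dscaml1 level of hindbrain nuclei depended on which nuclei were counted. Those with at least 300 plain CPM of Dscaml1 numbered 202 (7.26%, between 4.34% and 9.70% a library) and held 67.6% of the hindbrain Dscaml1 UMIs, a limit set after the values had been seen. Their cortical marker sum was 1052 plain CPM, against 113 in the remaining hindbrain nuclei. Slc17a7, the vesicular glutamate transporter of cortical neurons, had 115 plain CPM in them, against 23.4 in the remaining ones. Dcc had 260 plain CPM in them, against 2426, and Unc5d 59.9, against 461. When hindbrain nuclei were kept only if transmitter genes named them glutamatergic or inhibitory, a choice also made after the data had been seen, Dscaml1 was higher in hypothalamic than in hindbrain nuclei (log2 fold change 1.81, adjusted p = 2.95e-05, the range over 12 alternatives being 2.95e-05 to 0.421). In the 2782 hindbrain nuclei this value was 0.62 (adjusted p = 0.110) and not called. Red nucleus against hindbrain nuclei had 0.53 under the same choice and -0.64 with all hindbrain nuclei, a change of sign with both values under the 2-fold limit. The cortical excess over hindbrain nuclei was 4.32 under it.

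Shares of nuclei with a UMI gave the same picture once each nucleus was thinned to 2000 UMIs. Intervals here are exact (Clopper-Pearson) 95% binomial intervals and cover counting error only. Dcc was found in 8.90% of cortical nuclei (8.05 to 9.81), 85.8% of red nucleus (81.6 to 89.4), 61.7% of hypothalamic (53.4 to 69.6) and 87.9% of hindbrain nuclei (86.6 to 89.1). Dscaml1 was found in 58.2% of cortical (56.7 to 59.7), 9.94% of red nucleus (6.94 to 13.7), 18.8% of hypothalamic (12.9 to 26.0) and 9.03% of hindbrain nuclei (7.99 to 10.2). For Unc5d the shares were 2.82% (2.34 to 3.37), 16.6% (12.7 to 21.0), 51.0% (42.7 to 59.3) and 32.5% (30.8 to 34.3) in the same order. Without thinning, Dcc was found in 29.4%, 98.5%, 83.9% and 94.1% of the nuclei, whose median depths were 19360, 11929, 8010 and 10432 UMIs. Thinning left out 14 cortical and 13 hindbrain nuclei and none of the others. Hcrt, the orexin precursor of lateral hypothalamic neurons, served as a gene that cortical neurons should lack. It was found in 11.2% of thinned cortical nuclei (10.2 to 12.2), 13.3% of red nucleus (9.80 to 17.4), 33.6% of hypothalamic (26.0 to 41.7) and 14.1% of hindbrain nuclei (12.8 to 15.4). The cortical shares of Dcc, Unc5a, Unc5b and Unc5d lay at or under the Hcrt share of the same type. So did the red nucleus and hindbrain shares of Unc5a, Unc5b and Dscaml1. Hcrt sets no common floor, because levels in barcodes with too few genes for use differed between genes. In replicate 2 they had 1036 plain CPM of Hcrt, 198 of Dcc and 78.3 of Unc5a. In replicate 1 they had 287 plain CPM of Hcrt and 832 of Dcc. The Hcrt share therefore cannot decide whether these low shares are expression.

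**Figure D3:**
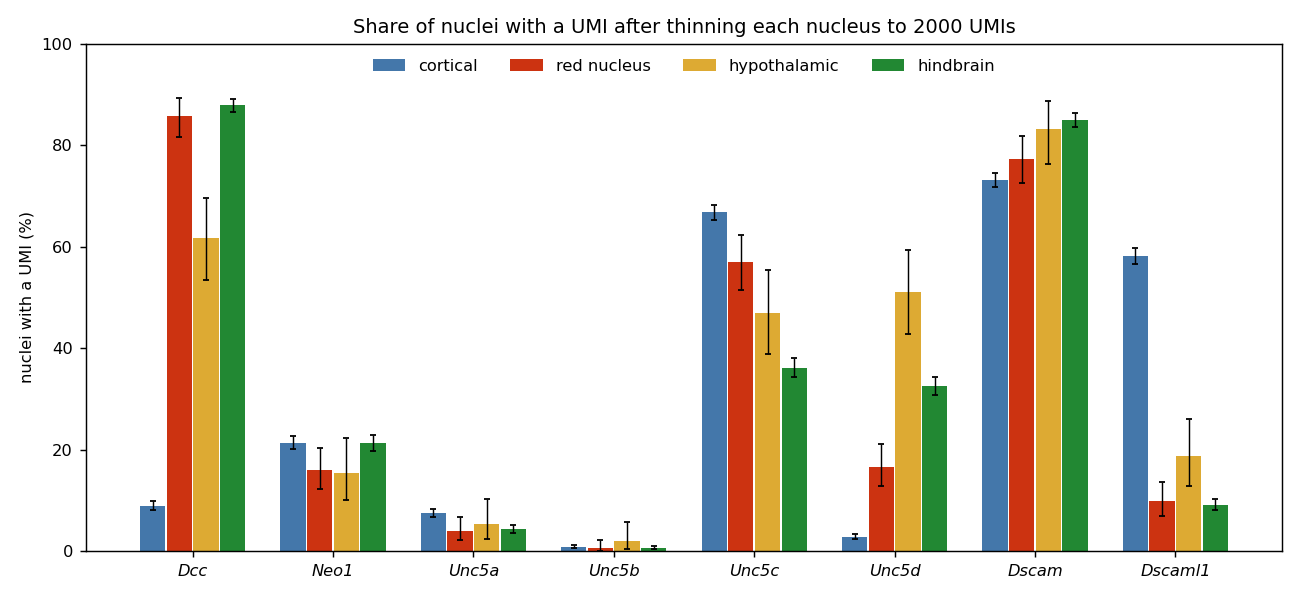
Share of nuclei (%) with at least 1 UMI of each member in cortical, red nucleus, hypothalamic and hindbrain nuclei, each nucleus thinned to 2000 UMIs. Error bars are exact 95% binomial intervals for counting error. In cortical nuclei Dcc is found in 8.90% and Dscaml1 in 58.2%, while Dscam is found in 73.1% to 85.0% of every type.

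Joint detection in thinned nuclei is given, without a test, for some of the pairs whose single shares lie above the Hcrt share of their type. Dcc and Unc5d were found together in 30.3% of hindbrain nuclei, where the product of their single shares within libraries was 28.6%. In red nucleus nuclei the pair Dcc and Unc5c, receptors that can act as one complex, was found in 49.4%, where the product was 48.8%. Other pairs lay further from their product. In hypothalamic nuclei Unc5c and Unc5d were found together in 28.9%, where it was 24.1%, and Dcc and Unc5d in 35.6%, where it was 31.6%. Hindbrain nuclei had Unc5c and Unc5d in 13.3%, where it was 11.8%. Neo1 and Unc5c lay below it in red nucleus nuclei, at 7.23% beside 9.04%.

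Within hypothalamic nuclei, both gates differed in Dcc and Dscaml1. The Sim1 gate selects neurons with the transcription factor of the paraventricular and neighbouring nuclei, and the gate on Ros1 and Rfx2 takes the other hypothalamic nuclei here. Sums of 34, 22 and 37 nuclei through the Sim1 gate and of 19, 22 and 15 nuclei through the Ros1 and Rfx2 gate were fitted together with the other types over 11766 genes, which left out Unc5b. Of 7 members tested 2 were called, where 4.62% of all genes were. Dscaml1 had 196, 174 and 143 CPM in Sim1-gate nuclei of replicates 1, 2 and 3. In Ros1 and Rfx2-gate nuclei it had 24.7, 53.8 and 42.3 CPM, which rest on only 4, 16 and 7 UMIs. The difference was 4.09-fold (log2 fold change 2.03 ± 0.41 SE, adjusted p = 0.00187). Dcc had 1328, 1389 and 1114 CPM in Sim1-gate nuclei, against 444, 672 and 586 CPM in Ros1 and Rfx2-gate nuclei, 2.18-fold (1.12 ± 0.20, adjusted p = 4.50e-04). Neither gene overlapped between the gates, but nor did Neo1, Unc5c and Unc5d, which were not called. The share of all genes without overlap was not counted. Without replicate 1 neither Dscaml1 nor Dcc was called, at 1.75 with an adjusted p of 0.0508 for Dscaml1 (0.00112 to 0.0508 over 4 alternatives) and at 0.97 for Dcc. Unc5d had 810, 679 and 724 CPM in Sim1-gate nuclei, against 222, 558 and 278 CPM in Ros1 and Rfx2-gate nuclei, and was not called (0.89, 95% interval 0.23 to 1.55, adjusted p = 0.118), though it was without replicate 2, at 1.65. Unc5c averaged 359 ± 110 CPM in Sim1-gate nuclei and 537 ± 16.7 CPM in Ros1 and Rfx2-gate nuclei, also not called (-0.62, -1.06 to -0.18).

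**Figure D4:**
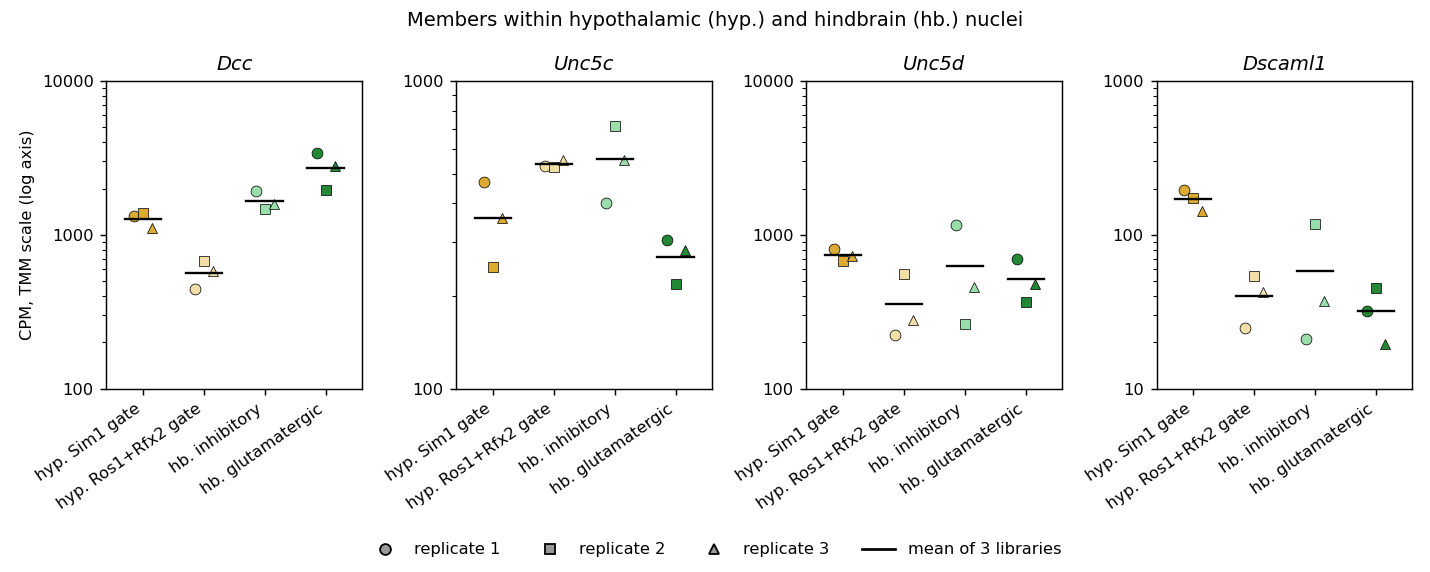
Level of Dcc, Unc5c, Unc5d and Dscaml1 in CPM on the TMM scale (log axis) in hypothalamic nuclei of the Sim1 gate and of the Ros1 and Rfx2 gate, and in inhibitory and glutamatergic hindbrain nuclei. Points are the 3 libraries and lines their means. Dscaml1 lies at 143 to 196 CPM in the Sim1 gate and 24.7 to 53.8 CPM in the other gate.

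Within hindbrain nuclei, transmitter genes named 76 nuclei inhibitory and 882 glutamatergic, and the other 1824 had too few UMIs of these genes to be named. Between inhibitory and glutamatergic nuclei 1 of 7 members was called, where 1.61% of all genes were. Unc5c had 402, 713 and 556 CPM in inhibitory nuclei of replicates 1, 2 and 3, against 304, 219 and 283 CPM in glutamatergic nuclei. The libraries did not overlap, and Unc5c was 2.12-fold higher in inhibitory nuclei (log2 fold change 1.08 ± 0.18 SE, adjusted p = 4.92e-04), a call lost without replicate 2 (0.77), whose inhibitory sum held 11 nuclei. Dcc had 1915, 1482 and 1579 CPM in inhibitory nuclei, against 3412, 1961 and 2807 CPM in glutamatergic nuclei. Its difference was under 2-fold (-0.70 ± 0.17, adjusted p = 0.0240), in the same direction in 3 of 3 libraries. Unc5d spread most, with 1167, 262 and 457 CPM in inhibitory nuclei, against 699, 367 and 477 CPM in glutamatergic nuclei, and was not called. In the 1824 unnamed hindbrain nuclei Dcc stood at 2039 ± 490, Unc5d at 390 ± 84.0 and Dscaml1 at 110 ± 34.4 plain CPM, and their cortical marker sum was 206 to 377 plain CPM, against 31.9 to 244 in inhibitory and 66.1 to 161 in glutamatergic nuclei.

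In nuclei that passed no gate, the mean levels of 6 members lay between those of cortical and hindbrain nuclei. Dcc had 1512 ± 144, Unc5c 473 ± 32.9, Unc5d 215 ± 36.0 and Dscaml1 218 ± 12.8 plain CPM in them (SD, n = 3 libraries), and Unc5a had 29.3 ± 9.51 and Dscam 802 ± 35.6. Unc5b, at 6.33 ± 1.10 plain CPM, lay above cortical (3.97 ± 1.67) and hindbrain nuclei (1.96 ± 0.640). Neo1 had 128 ± 3.91 plain CPM in them, beside 129 ± 8.32 in cortical and 128 ± 10.5 in hindbrain nuclei. Their cortical marker sum was 507 to 655 and their hindbrain marker sum 39.5 to 57.3 plain CPM, so they held markers of both.

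Partners of these receptors were described through 13 ligand genes and 24 genes of downstream effectors, of which 11 and 23 were tested. Ntn5, Hjv and Nfatc4 were too low to test. In cortical against hindbrain nuclei 4 of 11 ligand genes were called, 1 higher and 3 lower, where 21.4% of all genes were called, with a median log2 fold change of -0.01 beside -0.05 over all genes. Flrt2, an adhesion protein that binds UNC5 receptors, had 232 ± 34.3 CPM in cortical and 92.3 ± 7.12 CPM in hindbrain nuclei (log2 fold change 1.33 ± 0.08 SE, adjusted p = 1.75e-10), a call not made with total UMIs alone (0.91). Cbln4, a secreted cerebellin reported to bind DCC, had 0.583 ± 0.255 CPM in cortical and 4.02 ± 0.631 CPM in hindbrain nuclei (-2.94 ± 0.37, adjusted p = 2.41e-06). Ntn1, which encodes netrin-1 itself, had 1.11 ± 0.194 CPM in cortical and 3.003 ± 0.709 CPM in hindbrain nuclei (-1.45 ± 0.34, adjusted p = 0.00132). The third lower gene was Ntn4, at -1.05. Against red nucleus nuclei the same 4 genes were called in the same directions, where 21.8% of all genes were called. Red nucleus nuclei of replicates 1, 2 and 3 had 1.62, 2.56 and 6.80 CPM of Cbln4 and 4.86, 6.66 and 1.70 CPM of Ntn1. Their sums held 1305459, 1887404 and 1673860 UMIs of all genes, so both levels rest on few UMIs. With total UMIs alone Gpc3 was also called as lower against hindbrain nuclei (-1.31). Against hypothalamic nuclei 7 of 11 were called, where 22.0% of all genes were, with Flrt2, Rgma and Rgmb higher and Cbln4, Ntn1, Gpc3 and Ntn4 lower in cortical nuclei, of which Rgma (0.76) and Rgmb (0.51) were not called with total UMIs alone. Ntn1 had 13.3 ± 3.57 CPM in hypothalamic nuclei and 3.003 ± 0.709 CPM in hindbrain nuclei (2.12 ± 0.47, adjusted p = 0.00767), in 3 of 3 libraries. The hypothalamic sums held 367083, 554629 and 489529 UMIs of all genes in replicates 1, 2 and 3, so this level rests on few Ntn1 UMIs. The same limit holds for Cbln4, at 9.94 ± 5.12 CPM in hypothalamic nuclei.

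Among effectors, 7 of 23 were called in cortical against hindbrain nuclei, 5 higher and 2 lower, where 21.4% of all genes were called, with a median log2 fold change of 0.44 beside -0.05 over all genes. Both TRIM ubiquitin ligases that bind DCC went opposite ways. Trim9 had 515 ± 56.8 CPM in cortical and 189 ± 22.7 CPM in hindbrain nuclei (1.45 ± 0.08 SE, adjusted p = 5.82e-11), whereas Trim67 had 1.68 ± 0.708 CPM in cortical and 13.6 ± 1.15 CPM in hindbrain nuclei (-2.94 ± 0.23, adjusted p = 6.88e-09). Ptk2, the focal adhesion kinase phosphorylated on netrin signalling, had 841 ± 112 CPM in cortical and 266 ± 37.8 CPM in hindbrain nuclei (1.66 ± 0.08, adjusted p = 4.52e-12). Nck2, Trio and Pak1 were higher in cortical nuclei, at 1.52, 1.01 and 1.00, and Vasp, an actin regulator, was lower, at -2.04. With total UMIs alone Trio and Pak1 were not called, Dock1 (-1.38) and Myo10 (-1.12) were called as lower, and the split was 3 higher and 4 lower. Against red nucleus nuclei 7 of 23 effectors were higher and 2 lower in cortical nuclei, where 21.8% of all genes were called. Against hypothalamic nuclei 5 were higher and 4 lower, where 22.0% of all genes were called. With total UMIs alone these splits were 5 and 3, and 2 and 5. Among the other 3 comparisons, red nucleus against hypothalamic nuclei called Dock1 and Gpc3, both lower in red nucleus nuclei, where 6.81% of all genes were called, and with total UMIs alone also Ntn1 (-1.73). In red nucleus against hindbrain nuclei, where 4.18% of all genes were called, edgeR called 0 of 11 ligand genes and 0 of 23 effectors. Of these, 0 ligand genes and 7 effectors had an unadjusted p under 0.05. In hypothalamic against hindbrain nuclei, where 4.16% of all genes were called, it called 0 of 23 effectors, of which 7 had an unadjusted p under 0.05. With total UMIs alone it called Myo10 there (1.02). At such shares over all genes, lists of this size would hold few calls, so the counts of 0 say little about the partners. DESeq2 called 0 in each of these 3 lists. It called 3 ligand genes in cortical against hindbrain nuclei (edgeR 4), 8 effectors in cortical against hypothalamic nuclei (edgeR 9) and 2 ligand genes in red nucleus against hypothalamic nuclei (edgeR 1), and as many as edgeR in the other lists.

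Genes whose levels ran most like each member over the 12 sums were taken from 7021 genes with a mean of at least 20 CPM, by Pearson's r of log2 CPM. The 12 points share 3 libraries and 4 types, so r can reflect the order of the types or differences between libraries, and no p is given. Dcc ran with Ttc28 (r = 0.991), with the transcription factor gene Zfhx3 (0.989) and with the AMPA receptor subunit gene Gria4 (0.988). Zfhx3 averaged 53.9 CPM in cortical, 392 in red nucleus, 300 in hypothalamic and 415 CPM in hindbrain nuclei. Unc5d ran with Kcnip1 (0.987), Grik1 (0.983) and Scn3a (0.982), which encode a potassium channel-interacting protein, a kainate receptor subunit and a sodium channel. Dscaml1 ran with Iqgap2 (0.994), Arid1b (0.990) and Actn1 (0.983), and Iqgap2 averaged 337 CPM in cortical, 18.7 in red nucleus, 52.4 in hypothalamic and 34.9 CPM in hindbrain nuclei. For Neo1 the nearest were Kcnq5 (0.982), Grm7 (0.968) and Kcnt2 (0.962), and for Unc5c they were C130071C03Rik (0.966), Schip1 (0.954) and Cdh20 (0.949). The closest genes to Unc5a, Unc5b and Dscam were Cog2 (0.954), Bmerb1 (0.910) and Zfp609 (0.920). Zfp609, like Dscam, differed little between types, averaging 154 CPM in cortical, 143 in red nucleus, 154 in hypothalamic and 150 CPM in hindbrain nuclei.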

How the data were processed

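The authors deposited UMI counts for each gene in each barcode. Cell Ranger made them, and its version is 6.1.1 per the file headers and 7.0.1, with build mm10, per the submitters' processing notes. The sources used here give neither intron counting nor strand nor barcode selection, and exon-only counting would lower long genes with much unspliced RNA. Coordinates come from GENCODE M21 for the same build. The members and all gene lists were chosen with earlier results of these data known, and the low cortical Dcc and Unc5d had been seen before. Nuclei were typed with the stated gates in Python 3.11.15. Doublets were not removed, except in an alternative (Scrublet in Scanpy 1.11.5, which marked 0.821%, 1.30% and 1.45% of nuclei in replicates 1, 2 and 3).

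Raw counts were summed per library and type and fitted with edgeR 4.0.16 in R 4.3.3 (quasi-likelihood, TMM, filterByExpr, library as a block, 6 residual degrees of freedom, biological coefficient of variation 0.0867). The block follows from the design, as the types of a library come from 1 suspension. Their deviations correlated at 0.0662 to 0.612 within a library. SE is the log2 fold change over the square root of F. On counts simulated for cortical against hindbrain nuclei (14859 genes), 87% of genes changed by a log2 fold of 1 and 99% of those changed by 2 reached an adjusted p under 0.05 in the right direction, without the limit on the fold. The simulated counts had the same spread for every gene, the same mean profile in every type and no library effect, with 100 genes changed at each size. Recovery in the real counts, where spread differs between genes, may therefore be lower. Hindbrain nuclei were split by UMIs of Slc17a6 against Slc32a1, Slc6a5, Gad1 and Gad2. All members are named in every comparison, pathway genes by the largest change past the threshold, and like-patterned genes by the 3 highest r. Alternatives were DESeq2 1.42.0, total UMIs alone, no count filter, no block, each library left out, gates at 2 times their level, nuclei of several gates left out, doublets left out, a minimum of 2000 genes and, added after seeing the data, the transmitter split.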

Additional observations from a re-analysis of the deposited data

Results flagged for a closer look

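Barcodes with fewer than 1000 genes were used in no comparison, and members were found in them above the limit of 3 UMIs that a count of 0 allows. This held for 6 members in replicate 1, which had 31 such barcodes, for 8 members in replicate 2, which had 8324, and for 6 members in replicate 3, which had 134. In replicate 2 these barcodes had 198 plain CPM of Dcc, against 68.3 plain CPM in its cortical nuclei, and 183 plain CPM of Dscaml1, against 595 in its cortical nuclei. Hcrt had 1036 plain CPM there, against 85.9 in its cortical nuclei, so Dcc UMIs numbered 0.192 per Hcrt UMI in these barcodes and 0.795 in cortical nuclei. This ratio was 2.90 and 1.96 in replicate 1, where the barcodes held 29 Dcc and 10 Hcrt UMIs, and 0.857 and 2.93 in replicate 3. What the barcodes are was not tested.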

How the results depend on the processing

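Under all 12 alternatives Dcc and Unc5d kept their calls as lower, and Dscaml1 as higher, in cortical nuclei against each other type. Log2 fold changes against hindbrain nuclei ranged from -5.10 to -4.23 for Dcc, from -5.01 to -4.25 for Unc5d and from 2.75 to 4.32 for Dscaml1. Against red nucleus nuclei they ranged from -4.60 to -3.88 for Dcc and from -3.60 to -2.74 for Unc5d, and against hypothalamic nuclei from -3.77 to -2.92 and from -5.47 to -4.48. With total UMIs alone 4 members were called in cortical against hindbrain nuclei, 2 higher and 2 lower. Among all genes 17.9% of calls were then higher in cortical nuclei, where it was 39.3% on the TMM scale. These shares were 20.2% and 39.0% against red nucleus nuclei, 17.8% and 46.8% against hypothalamic nuclei, 62.6% and 51.2% for hypothalamic against hindbrain nuclei and 35.3% and 52.5% for red nucleus against hypothalamic nuclei. Red nucleus against hindbrain nuclei called 1 member with total UMIs alone (main 2), and 1 to 2 when 1 library was left out. Hypothalamic against hindbrain nuclei called 2 under the transmitter split (main 1), and red nucleus against hypothalamic nuclei 1 with gates at 2 times their level (main 2). Leaving out 1 library called 0 to 3 members and 349 to 449 genes between the hypothalamic gates (main 2 and 544), and 0 to 1 members and 72 to 205 genes within the hindbrain (main 1 and 190). Without the replicate block red nucleus against hindbrain nuclei called 419 genes (main 677) and the hindbrain split 125, and no count of members changed.

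Changes of sign were in differences that were not called. Against hindbrain nuclei, cortical Dscam (main -0.04) was at 0.019 without a count filter, at 0.0012 with gates at 2 times their level and from -0.082 to 0.029 with 1 library left out. Cortical Dscam against red nucleus nuclei was at -0.18 with total UMIs alone. Against hypothalamic nuclei it was at -0.50 there, at -0.0049 with DESeq2, at -0.0045 without nuclei of several gates and at -0.016 under the transmitter split. Hypothalamic Dscam against hindbrain nuclei was at 0.052 with total UMIs alone and at 0.0018 without nuclei of several gates. Cortical Unc5b against hypothalamic nuclei was at 0.028 without a count filter, at 0.63 without nuclei of several gates, at 0.062 from 2000 genes upwards and from -0.62 to 0.61 with 1 library left out. In red nucleus against hindbrain nuclei the split gave 0.55 for Unc5b and 0.53 for Dscaml1, and Unc5b ranged from -0.46 to 0.35 with 1 library left out. In red nucleus against hypothalamic nuclei Neo1 was at -0.14 with total UMIs alone and from -0.041 to 0.13 with 1 library left out. Unc5a was at 0.52 there with gates at 2 times their level, at 0.13 without nuclei of several gates and from -0.28 to 0.20 with 1 library left out. With 1 library left out, Unc5a ranged from -0.053 to 0.59 in hypothalamic against hindbrain nuclei and from -0.084 to 0.31 in inhibitory against glutamatergic hindbrain nuclei, where Unc5d ranged from -0.19 to 0.37. The cause of these changes was not tested. Unc5b had the fewest UMIs of the members, with 8 in red nucleus and 8 in hypothalamic nuclei.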
